A study of Sus scrofa with 10 samples.

Results

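BET1L and 8 other genes that encode SNARE proteins of the Golgi were followed in the ovaries of gilts given recombinant pig follicle-stimulating hormone (rpFSH). The other genes were BET1, GOSR1, GOSR2, STX5, STX6, YKT6, VTI1A and SEC22B, called partners here. A protein-coding locus was taken when its deposited name held one of the 9 symbols, which found 8 genes. GOSR2 stood under a gene ID only and was found through the table of gene IDs, which brought the set to 9 of 19972 protein-coding loci and 43499 loci in all. The set was chosen by the FPKM difference of BET1L between the groups in these same pigs. Its own group values are therefore a description with no test, and the tests below concern the partners.

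Each of the 10 libraries came from the ovary of a different pig, with 5 pigs per group. All gilts were fed altrenogest, a progestin that blocks oestrus, from 210 days of age (20 mg per day, 18 days). After a withdrawal of 2 days, the rpFSH treatment group received 1000 IU of rpFSH and the control group received saline, and ovaries were collected at 234 days. The labels spell the treatment fpFSH. Follicles on the surface had been removed before RNA extraction, so each value is a mean over the mixed tissue that remained. In such bulk samples, fewer cells of a type and less RNA per cell cannot be told apart.

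SNARE proteins drive the fusion of transport vesicles with their target membrane. A fusing bundle is built from 1 helix each of the Qa, Qb, Qc and R classes. Qa STX5 pairs with GOSR2, BET1 and SEC22B in traffic from the endoplasmic reticulum to the Golgi. In traffic within the Golgi, the same STX5 pairs with GOSR1, BET1L and YKT6, so that BET1L takes the Qc place that BET1 holds in the earlier step. STX6 (Qc) and VTI1A (Qb) belong to complexes of the trans-Golgi network and endosomes. Secretory cells such as those of the ovary depend on this route for the export of glycoproteins and receptors.

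The libraries held between 64873797 and 75114003 counts per pig, with 65166187 to 75114003 in the control group and 64873797 to 74656992 in the rpFSH treatment group. Markers of granulosa cells, theca and luteal cells, stroma, smooth muscle, endothelium, leukocytes, oocytes and red blood cells were detected, and no marker with a locus was at 0 in every pig. FOXL2, HSD3B1, PIFO, DAZL and HBA were not analysed here. Control replicates 2 and 5 stood apart by their markers of multiciliated epithelium, whose summed FPKM was 27.5 and 52.2. The other controls had 5.38 to 6.36 and the rpFSH treatment group 2.80 to 5.46. Both pigs stood apart in other markers too. Control replicate 2 had the highest theca and luteal sum (2546 FPKM, against 57.3 to 277 in the other controls). Its granulosa, stroma and smooth muscle sums were the lowest of the controls. Control replicate 5 had the highest smooth muscle sum (1789 FPKM, against 65.3 to 290 in the other controls). Of the markers, 2 of 8 for multiciliated epithelium and 1 of 6 for stroma were downregulated by limma at the limits used below, against 0.883% of all loci, and 0 in the other 7 lists. FPKM, the number of fragments scaled to transcript length and library size, is the unit of every level below.

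BET1L encodes the Qc SNARE of the intra-Golgi complex. Its locus lies on chr2:26475-30618 of Sscrofa11.1, on the minus strand, with 3 assembled transcripts and no overlapping locus. The RefSeq gene of the same name starts at the same base and ends at 31960, which is 1342 bp beyond the 5′ end of the locus. The primers with which the study measured BET1L by qRT-PCR are the sequences of this gene given in the study's tables, and are shown because they define which transcript that assay targeted. Its values were not analysed here, and where the primers fall in the locus was not determined.
BET1L forward: ctcagggctctcactccaat
BET1L reverse: agaacaagtgctctcgcacg
Both are 20 bases long and are written 5′ to 3′ with no part marked.

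The BET1L level in control replicates 1 to 5 was 0.946, 0.949, 0.866, 1.59 and 0.767 FPKM. In rpFSH replicates 1 to 5 it was 7.01, 7.17, 1.16, 7.14 and 5.76 FPKM. Of the rpFSH pigs, 4 were above every control, while rpFSH replicate 3 lay within the control range, so the groups overlapped. The group means were 1.02 ± 0.327 (SD, n = 5) in the control group and 5.65 ± 2.58 (SD, n = 5) in the rpFSH treatment group, a 5.51-fold ratio or 2.46 on the log2 scale. These are the values that chose the gene. Without rpFSH replicate 3 the mean was 6.77 ± 0.678 (SD, n = 4) and the log2 ratio 2.72.

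The counts behind these levels were 281, 308, 251, 527 and 257 in the control pigs, and 2280, 2380, 338, 2207 and 1790 in the rpFSH pigs. All are far above the 3 counts taken as the floor. The number of pigs, not depth, therefore limits the precision of the BET1L means.

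rpFSH replicate 3 also stood low within its group for several marker sums. Its granulosa markers summed to 17.2 FPKM, against 61.0 to 177 in the other rpFSH pigs and 24.1 to 230 (control replicates 2 and 4) in the control group. For theca and luteal markers the sum was 29.2 FPKM, against 111 to 1324 in the other rpFSH pigs and 57.3 to 2546 in the controls. For stroma it was 346 FPKM, against 665 to 1320 and 195 to 1031. The erythroid sum of this pig was 15.2 FPKM, against 16.8 to 53.7 in the other rpFSH pigs. Other lists went the other way. Its oocyte sum was the highest of its group (19.3 FPKM, against 10.3 to 18.1), as was its multiciliated sum (5.46 FPKM, against 2.80 to 4.86). Its smooth muscle, endothelium and leukocyte sums lay within the range of the other rpFSH pigs. The part of these cell markers in the BET1L level of that pig was not tested.

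**Figure D1:**
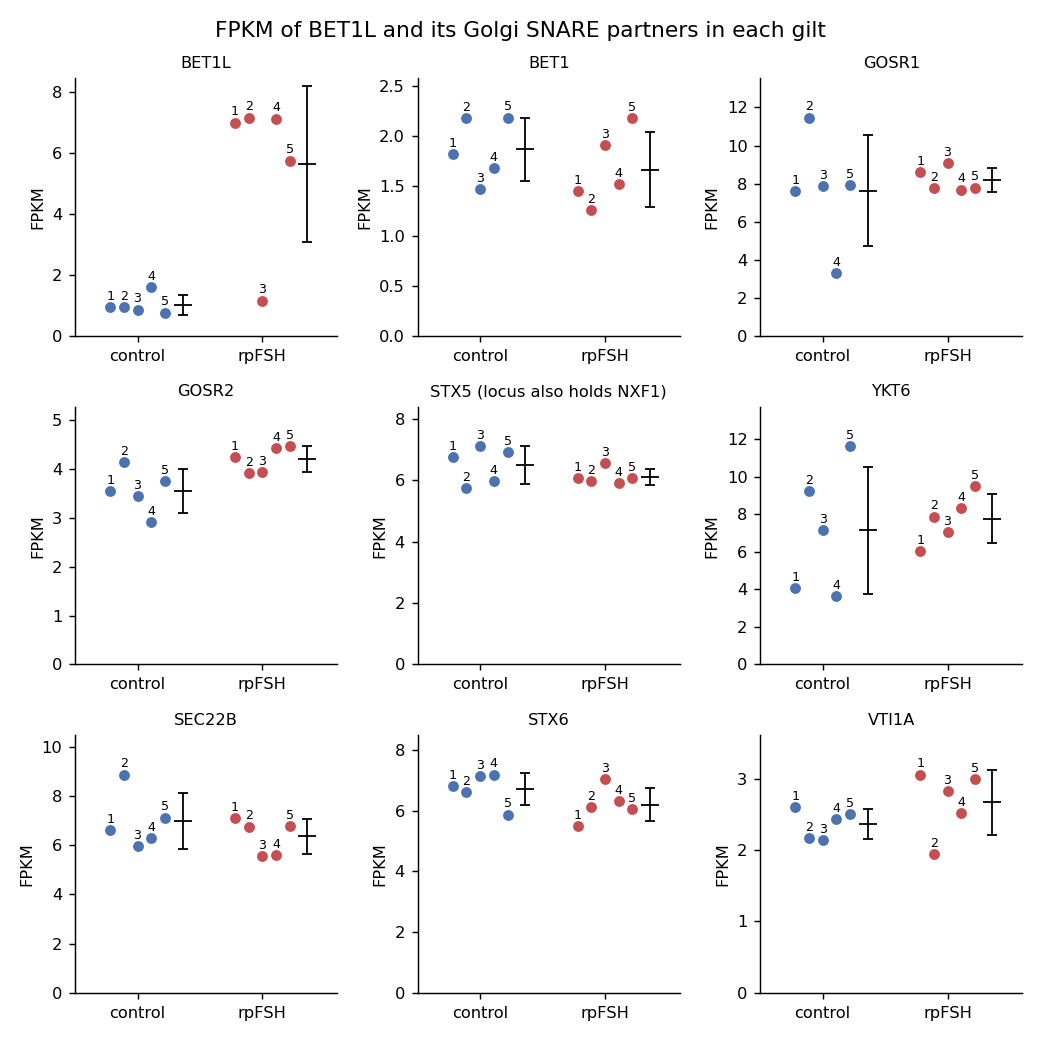
FPKM of the 9 genes in each gilt, with a panel per gene, blue points for the control group, red points for the rpFSH treatment group, the replicate number above each point, and the mean with SD (n = 5) as a black bar. BET1L separates 4 rpFSH pigs from the rest, with rpFSH replicate 3 at 1.16 FPKM, while the ranges of both groups overlap for each of the 8 partners.

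BET1 encodes the Qc SNARE that holds the place of BET1L in traffic from the endoplasmic reticulum, and lies on chr9:73777695-73792693. In the control pigs it was at 1.82, 2.18, 1.47, 1.68 and 2.18 FPKM, and in the rpFSH pigs at 1.45, 1.26, 1.91, 1.52 and 2.18 FPKM. The ranges overlapped over most of their length. The difference in log2 (FPKM + 1), rpFSH minus control, was -0.11 ± 0.13 (SE), with a 95% interval from -0.39 to 0.17, and did not pass (limma adjusted p = 1.00, exact permutation p = 0.365).

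Set against BET1 in the same pig, BET1L was the lower of the pair in all 5 controls and in rpFSH replicate 3. The ratio of BET1L to BET1 was between 0.351 and 0.951 in the control group. It was 4.83, 5.68, 0.608, 4.70 and 2.64 in rpFSH replicates 1 to 5. As a share of both FPKM values together, BET1L made up 26.0 to 48.7% in the control group. In the rpFSH treatment group the share was 37.8% in replicate 3 and 72.5 to 85.0% in the others. These ratios carry the BET1L values that chose the set and were not tested.

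**Figure D2:**
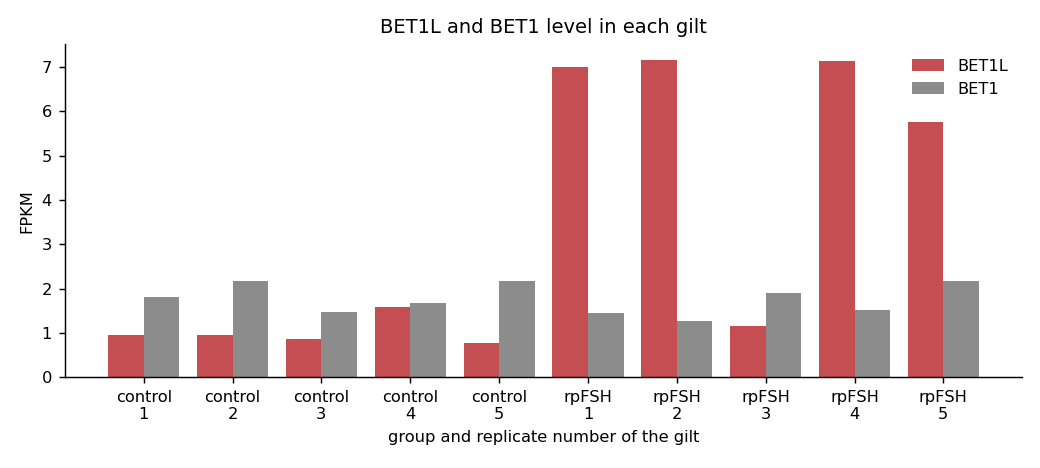
FPKM of BET1L (red bars) and BET1 (grey bars) in each of the 10 gilts, with group and replicate number on the horizontal axis and FPKM from 0 on the vertical axis. BET1L is below BET1 in the 5 control pigs and in rpFSH replicate 3, and above it in the other 4 rpFSH pigs.

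STX5 encodes the Qa SNARE shared by both STX5 complexes. Its locus, chr2:8937771-8982004, also carries the name of NXF1, an mRNA export factor, so its values belong to both genes and cannot be split. The locus was at 6.75, 5.74, 7.11, 5.97 and 6.91 FPKM in the control pigs, and at 6.07, 5.98, 6.55, 5.90 and 6.07 FPKM in the rpFSH pigs. All rpFSH values fell within the control range. By limma the difference was -0.07 ± 0.09 (SE), with a 95% interval from -0.28 to 0.13 (adjusted p = 1.00, exact permutation p = 0.230).

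Of the Qb partners, GOSR2 (chr12:17768104-17789348) acts with BET1 and GOSR1 (chr12:46541172-46597071) with BET1L. GOSR2 was at 3.55, 4.14, 3.44, 2.91 and 3.75 FPKM in the control group and at 4.25, 3.92, 3.94, 4.43 and 4.47 FPKM in the rpFSH treatment group. All 5 rpFSH pigs were above the control median, and control replicate 2 was above the lowest rpFSH pigs. The means were 3.56 ± 0.451 and 4.20 ± 0.261 FPKM (SD, n = 5 each), a log2 ratio of 0.24. The limma difference was 0.19 ± 0.10 (SE), with a 95% interval from -0.03 to 0.42 (adjusted p = 1.00). The exact permutation test of this gene alone gave p = 0.0317, two-sided, beside an unadjusted limma P of 0.0792. On the counts, edgeR gave an unadjusted P of 0.0206 and an adjusted p of 0.992, and DESeq2 0.00564 and 0.298. No adjusted value passed 0.05.

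GOSR1 was at 7.62, 11.5, 7.88, 3.28 and 7.94 FPKM in the control group and at 8.59, 7.75, 9.09, 7.69 and 7.79 FPKM in the rpFSH treatment group. Its controls spread on both sides of the rpFSH pigs, with control replicate 4 lowest and control replicate 2 highest. The limma difference was 0.16 ± 0.23 (SE), with a 95% interval from -0.35 to 0.68 (adjusted p = 1.00, exact permutation p = 0.683). Without control replicate 4 the log2 ratio changed from 0.10 to -0.09.

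Of the R SNAREs, YKT6 (chr18:50960109-50971384), a lipid-anchored protein, acts with BET1L, and SEC22B (chr4:100880821-100905993) with BET1. YKT6 was at 4.08, 9.23, 7.18, 3.63 and 11.6 FPKM in the control group and at 6.03, 7.88, 7.06, 8.35 and 9.49 FPKM in the rpFSH treatment group. The controls spanned a 3.21-fold range that contained every rpFSH pig. By limma the difference was 0.20 ± 0.27 (SE), with a 95% interval from -0.40 to 0.79 (adjusted p = 1.00, exact permutation p = 0.722).

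Within the control group, the highest YKT6 values were those of replicates 2 and 5, which had the high multiciliated sums given above. Within the rpFSH treatment group, the highest YKT6 value was that of replicate 5, at 9.49 FPKM with a multiciliated sum of 4.77 FPKM. The part of that cell type in the YKT6 level was not tested. Nor was the part of the other cell types in which control replicates 2 and 5 stood apart. Without control replicates 2 and 5 the YKT6 log2 ratio went from 0.12 to 0.64 (limma adjusted p = 0.643). Leaving out control replicate 1 or 4 turned it to -0.03 or -0.05.

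SEC22B was at 6.62, 8.86, 5.96, 6.30 and 7.11 FPKM in the control group and at 7.09, 6.75, 5.56, 5.59 and 6.77 FPKM in the rpFSH treatment group. The ranges overlapped, with control replicate 2 above all other pigs. The limma difference was -0.11 ± 0.12 (SE), with a 95% interval from -0.38 to 0.16 (adjusted p = 1.00, exact permutation p = 0.405).

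STX6 (chr9:122529727-122580754) and VTI1A (chr14:122848842-123217230), the trans-Golgi and endosomal pair, gave means that differed in opposite directions. STX6 was at 6.82, 6.60, 7.13, 7.18 and 5.87 FPKM in the control group and at 5.49, 6.11, 7.04, 6.30 and 6.05 FPKM in the rpFSH treatment group. VTI1A was at 2.60, 2.16, 2.14, 2.43 and 2.50 FPKM in the control group and at 3.05, 1.95, 2.82, 2.52 and 3.00 FPKM in the rpFSH treatment group. For both genes the lowest and highest values of the groups overlapped. The limma differences were -0.10 ± 0.10 (SE, exact permutation p = 0.175) for STX6 and 0.12 ± 0.11 (SE, exact permutation p = 0.206) for VTI1A, both with an adjusted p of 1.00.

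The study's limits for DE mRNAs ask for P under 0.05 without adjustment together with a log2 ratio beyond 1 in either direction. The study applied them with Ballgown, while P here came from limma, so the calls are not like for like. At these limits limma called 0 of the 8 partners. Over all 15170 protein-coding loci tested, 1.13% were called, with 0.25% upregulated and 0.883% downregulated. At an unadjusted P under 0.05 alone, limma also counted 0 of 8 partners against 3.03% of all loci. edgeR and DESeq2 on the counts each gave 1 of 8, GOSR2 in both, against 4.76% and 6.04% of all loci. With the limit on the log2 ratio added, edgeR called 0 of 8 (3.09% of all loci) and DESeq2 0 of 8 (3.47%). At an adjusted p under 0.05, limma called 0 of all 15170 loci, so its 0 of 8 says nothing about the partners, and DESeq2 called 0 of 8 against 0.567% of all loci. No partner had groups that did not overlap, as 0.626% of all loci did. The median log2 ratio was 0.01 over the partners and -0.08 over all loci tested.

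**Figure D3:**
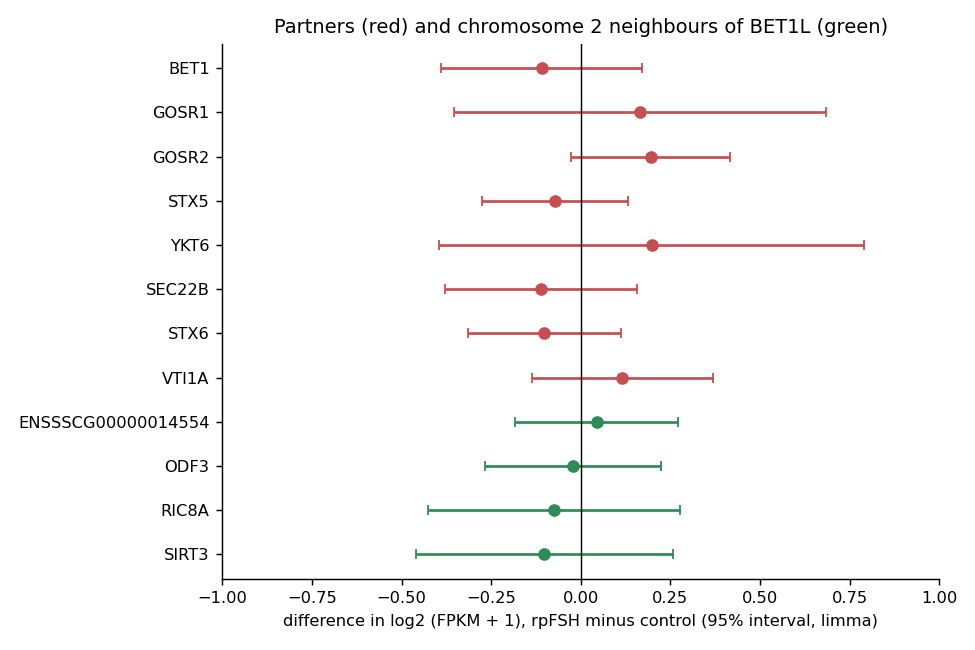
Difference in log2 (FPKM + 1), rpFSH minus control, with its 95% interval from limma (n = 5 per group), for the 8 partners (red) and the 4 nearest protein-coding loci of BET1L (green). Every interval includes 0, and those of GOSR1 and YKT6 are the widest.

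Summed over the 8 partners, the level was 42.8 ± 6.73 FPKM (SD, n = 5) in the control group, from 33.4 in replicate 4 to 50.4 in replicate 2. In the rpFSH treatment group it was 43.1 ± 1.74 FPKM (SD, n = 5), from 41.6 to 45.8. BET1L made up 1.58 to 4.56% of the sum of all 9 genes in the controls. In the rpFSH pigs it made up 2.57% in replicate 3 and 11.2 to 14.7% in the others. Control replicate 4, with the highest BET1L of its group, had the lowest GOSR1, GOSR2 and YKT6 of all 10 pigs. It also had the highest STX6 of all 10 pigs, at 7.18 FPKM. Its values of BET1, the STX5 locus, VTI1A and SEC22B lay between those of other pigs.

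Spread between pigs was uneven over the set. The SD of log2 (FPKM + 1) among controls was 0.56 for GOSR1 and 0.63 for YKT6, and 0.09 to 0.22 for the other 7 genes. Among rpFSH pigs it was 0.83 for BET1L and 0.05 to 0.22 for the partners. The median over loci with a mean of at least 1 FPKM was 0.26 in either group. On this scale the spread of 7 genes in the controls and of 8 in the rpFSH pigs was thus below that median. The scale narrows the spread of low genes such as BET1L in the controls. There its highest level was 2.08-fold its lowest, above the median of 1.79 over the same loci.

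Over all 10 pigs the mean level fell in the order GOSR1 (7.91 FPKM), YKT6 (7.46), SEC22B (6.66), STX6 (6.46), the locus of STX5 and NXF1 (6.30), GOSR2 (3.88), BET1L (3.34), VTI1A (2.52) and BET1 (1.76). These levels are scaled to transcript length, so they can be set side by side, except that the level of the merged locus is not that of STX5 alone. Among the 8 neighbouring steps, 2 had an adjusted p under 0.05 by a sign-flip permutation test of the differences taken within each pig. The locus of STX5 and NXF1 was above GOSR2 in 10 of 10 pigs, by 0.59 ± 0.20 (SD) in log2 (FPKM + 1), with an exact sign-flip permutation p of 0.00195 and a Benjamini-Hochberg adjusted p of 0.0156 over the steps. VTI1A was above BET1 in 9 of 10 pigs, by 0.35 ± 0.19 (SD), with an exact permutation p of 0.00391 and an adjusted p of 0.0156. The remaining steps between partners had adjusted p of at least 0.703 by the same test. The steps from GOSR2 to BET1L and from BET1L to VTI1A carry the BET1L values that chose the set. They count among the 8 of the adjustment, but their p is not read here. GOSR2 was above BET1L in 6 of 10 pigs, and BET1L above VTI1A in 4 of 10. BET1L ranked 9th of the set in the control group and 6th in the rpFSH treatment group.

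Within groups, no partner followed BET1L from pig to pig by Pearson's r. Each log2 (FPKM + 1) value was set relative to its group mean, and p was taken over all pairings that keep the pigs within their group. Over 10 pigs r ran from -0.51 for the STX5 locus (exact permutation p = 0.0305, adjusted p = 0.122) to 0.28 for SEC22B (exact permutation p = 0.483, adjusted p = 0.753). By Spearman's rho the STX5 locus reached -0.70 (exact permutation p = 0.00313, adjusted p = 0.0250 over 8 genes), and GOSR1 -0.77 (exact permutation p = 0.0189, adjusted p = 0.0756). Without rpFSH replicates 2 and 4, the pigs farthest from the median BET1L value, r for the STX5 locus was -0.46. Without rpFSH replicate 3, r moved little for the STX5 locus (-0.56), for BET1 (from -0.43 to -0.53) and for VTI1A (from -0.23 to -0.18). It changed from 0.04 to -0.73 for GOSR2, from -0.12 to -0.71 for YKT6 and from -0.34 to -0.73 for GOSR1. For STX6 it changed from -0.48 to 0.45 and for SEC22B from 0.28 to -0.25.

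Among 11314 protein-coding loci with a mean of at least 1 FPKM, those most like BET1L in the same measure were ZKSCAN5, a zinc finger gene, with r = 0.96, the gene ENSSSCG00000035821 with r = 0.93, and PLSCR3, a phospholipid scramblase gene, with r = 0.93, each over 10 pigs. Each was lowest in rpFSH replicate 3, the pig in which BET1L lay far below its group. The choice by r favours such loci, so this is no separate result. ZKSCAN5 was at 1.21 FPKM there and at 2.41 to 2.67 in the other rpFSH pigs. ENSSSCG00000035821 was at 0.575 against 1.62 to 2.15 FPKM, and PLSCR3 at 2.77 against 3.95 to 4.56 FPKM. Without that pig r fell to 0.53, 0.18 and 0.56. None of the 3 passed the limma test between groups, with unadjusted P of 0.219, 0.929 and 0.611 and adjusted p of 1.00 each.

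The nearest protein-coding loci on either side of BET1L lie within 7053 bp on chromosome 2. RIC8A, which encodes a chaperone of G protein alpha subunits, starts 1531 bp from the 5′ end of the BET1L locus on the other strand. It was at 8.83, 6.23, 7.67, 8.61 and 9.18 FPKM in the control group and at 11.0, 7.93, 5.96, 6.86 and 6.91 FPKM in the rpFSH treatment group. The groups overlapped, and rpFSH replicate 3 was the lowest pig. The limma difference was -0.07 ± 0.16 (SE), with a 95% interval from -0.43 to 0.28 (adjusted p = 1.00, exact permutation p = 0.746).

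SIRT3, a mitochondrial deacetylase gene at a gap of 7053 bp, was at 2.54 ± 0.677 FPKM (SD, n = 5) in the control group and at 2.29 ± 0.548 FPKM (SD, n = 5) in the rpFSH treatment group. The limma adjusted p was 1.00 and the exact permutation p 0.556. On the other side lie ODF3, named for outer dense fibres of sperm, at 1327 bp, and ENSSSCG00000014554 at 5707 bp, both on the plus strand. They had 0 to 38 and 0 to 17 counts per pig, so no difference of small size was detectable at this depth, and the limma P was 0.848 for ODF3 and 0.674 for ENSSSCG00000014554, with an adjusted p of 1.00 each.

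**Figure D4:**
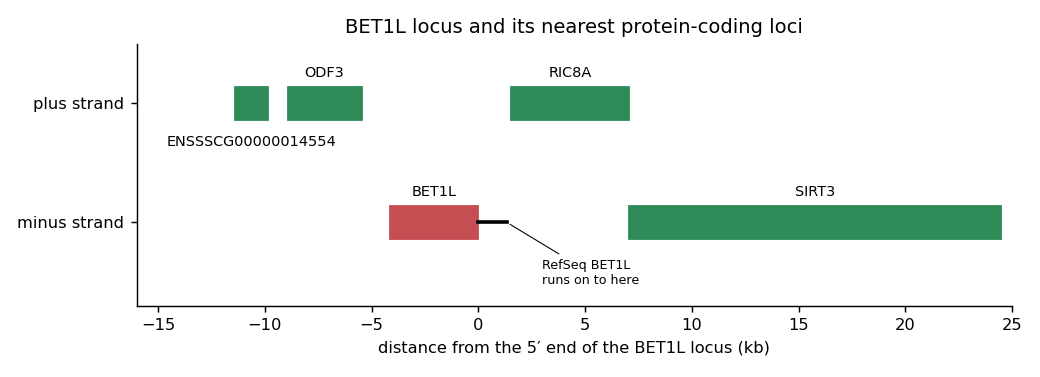
Map of the BET1L locus (red) and its 4 nearest protein-coding loci (green) by strand, with the distance from the 5′ end of the BET1L locus in kb on the horizontal axis. The black line marks the 1342 bp by which the RefSeq gene runs beyond the locus, towards RIC8A, which starts at 1531 bp on the plus strand.

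The wider Golgi traffic machinery was taken as 5 lists of 91 genes, of which 87 had a locus and 86 were tested. GOLGA2, ARF1, SEC23A and SEC16A were not analysed here, and SNAP25 was below the filter on low values. Of the 86, limma called 0 in either direction, against 1.13% of all loci. An unadjusted P under 0.05 was found for 1 of the 86, against 3.03% of all loci. Their log2 ratios ran from -0.44 to 0.38 with a median of -0.05, near the -0.08 over all loci. Of the 87 loci, 8 carry the name or ID of another gene as well, so their values cannot be split. The lowest ratio was of such a locus, VPS51 with MRPL49 and TM7SF2, which had a coefficient of variation of 138% among the controls and was picked out for its value. By list the median was -0.02 for 27 other SNAREs, 0.01 for 14 SNARE regulators, -0.05 for 21 Golgi tethers, -0.07 for 13 genes of the COPI coat and -0.05 for 11 genes of the COPII coat. Without control replicates 2 and 5, limma called 1 of the 86, STX1A, a plasma membrane SNARE, against 2.47% of all loci. Its log2 ratio was 1.40 there (limma adjusted p = 0.654) and 0.21 over all pigs, and it was named after its values were seen.

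The gene with an unadjusted P under 0.05 was STX16, a Qa SNARE of the trans-Golgi network that pairs with STX6 and VTI1A. Its locus also carries NPEPL1, so the values belong to both. It was at 3.89 to 4.71 FPKM in the control group and at 2.84 to 4.26 FPKM in the rpFSH treatment group, with means of 4.42 ± 0.314 and 3.50 ± 0.547 (SD, n = 5 each). All 5 rpFSH pigs were below the control median and the groups overlapped. The limma difference was -0.27 ± 0.11 (SE, P = 0.0286, adjusted p = 1.00), the exact permutation p was 0.0159, and edgeR gave P = 0.0922. SNAP47, a SNAP25-like SNARE, had the next smallest P of its list, at 1.54 ± 0.354 and 1.91 ± 0.175 FPKM (SD, n = 5 each). Its limma P was 0.117 (adjusted p = 1.00) and its exact permutation p 0.0397. In the same list the exact permutation p was 0.0238 for STX18 and 0.0476 for SNAP23, both with a lower mean in the rpFSH treatment group. No share of all loci is given here for the exact test, so its p-values stand without a background.

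In the other lists no gene had P under 0.05, and the 2 with the smallest P of each list had a lower mean in the rpFSH treatment group. Among the SNARE regulators these were STXBP5, the tomosyn that binds syntaxins, with a log2 ratio of -0.17 and limma P of 0.219, and NAPB, a cofactor of SNARE disassembly, with -0.19 and 0.402. Among the tethers they were GOLGA4, a golgin, with -0.18 and 0.260, and COG1, a subunit of the COG complex, with -0.12 and 0.305. In the COPI coat they were ARFGAP2 with -0.22 and 0.155, and the coat subunit COPB1 with -0.15 and 0.240. In the COPII coat they were PREB, the exchange factor for SAR1, with -0.22 and 0.211, and the coat subunit SEC13 with -0.18 and 0.362. All had an adjusted p of 1.00. The median log2 ratio over all loci tested was -0.08 on FPKM and -0.0082 on the counts scaled for edgeR. By edgeR the log2 fold change of these genes ran from -0.15 for PREB to -0.05 for COG1.

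**Figure D5:**
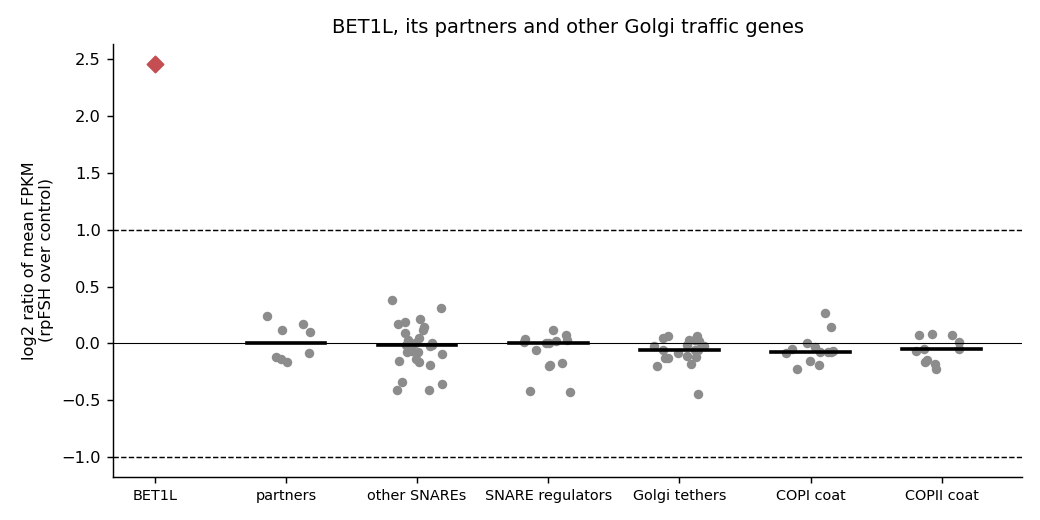
Log2 ratio of mean FPKM, rpFSH over control, for BET1L (red diamond), its 8 partners and the genes of 5 lists of Golgi traffic genes (grey points, with the median of each list as a black bar). Dashed lines mark log2 ratios of 1 and -1, and apart from BET1L at 2.46 no point lies beyond 0.44 from 0.

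The assembly also placed 10 loci without annotation under the name of a member, 6 in VTI1A, 2 in STX6 and 2 in GOSR1. All lie inside the gene, 7 on the opposite strand and 3 on the same strand. Whether counting used the strand is not given in the sources used here, so reads of such a locus and its host gene may not be separable. Of the 9 that passed the filter, limma counted 1 with an unadjusted P under 0.05, against 4.75% of 19909 unannotated loci tested. It was MSTRG.6763 (chr12:46585172-46587893), on the strand of GOSR1, named after its values were seen. It was at 1.88 to 2.59 FPKM in the control group and at 2.41 to 3.61 FPKM in the rpFSH treatment group, a difference of 0.33 ± 0.12 (SE, limma adjusted p = 0.976, exact permutation p = 0.0159). GOSR1 itself, given above, did not pass the test.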

How the data were processed

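Ovary RNA-seq tables of 10 gilts were used. According to the methods, the authors used Cutadapt for trimming, Hisat2 and Bowtie2 for mapping to Sscrofa11.1, StringTie for assembly, and StringTie with Ballgown for expression. The submitters' processing notes list Bowtie 0.12.2, HISAT2 2.0 and StringTie 1.3.0. The authors deposited FPKM, with 0.0001 as the lowest value, and a whole-number count per locus and pig. How the counts were made is not given in the sources used here. The methods describe rRNA removal and a HiSeq instrument, and the labels poly(A) selection and a NovaSeq instrument.

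The groups were compared with limma 3.58.1 (trend, two-sided, R 4.3.3) on log2 (FPKM + 1), over the 15170 protein-coding loci whose FPKM averaged 0.1 or more, with Benjamini-Hochberg adjustment over all of them. A difference on this scale understates the change of low genes. Fold changes are ratios of group mean FPKM. Count tests used edgeR 4.0.16 (quasi-likelihood) and DESeq2 1.42.0. Single genes had an exact permutation test over 252 assignments, with Python 3.11.15 and scipy 1.17.1. The calculations were tested on simulated data of 14750 genes, with 200 changed by a log2 of 2. Of these 200, limma, edgeR and DESeq2 each recovered 100%. The simulation gave every gene the same dispersion, so recovery of genes with a wide spread, such as GOSR1 and YKT6, was not tested. Recovery of changes as small as those of the partners, with log2 ratios from -0.16 to 0.24, was not tested. Members and lists were chosen with earlier results of these data known. Named genes are the members, the called genes of each list or otherwise the 2 with the smallest limma P, the 3 most alike to BET1L and the 2 nearest protein-coding loci on either side of it. The unannotated loci and the fit without control replicates 2 and 5 were added after seeing the data. Alternatives were other scalings, filters, a pseudocount of 0.1, group medians, count tests, a replicate block and leaving out each pig.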

Additional observations from a re-analysis of the deposited data

Results flagged for a closer look

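The gap of each group's highest and lowest pig to the next was set against the group's range and Dixon's critical value. BET1L in rpFSH replicate 3, at 1.16 FPKM, lay below the other 4 pigs of its group (5.76 to 7.17 FPKM). BET1L in control replicate 4, at 1.59 FPKM, lay above the other 4 controls (0.767 to 0.949 FPKM). For BET1L, whose values chose the set, both are descriptions of single pigs and not a test of the groups. The STX5 locus in rpFSH replicate 3, at 6.55 FPKM, lay above the other rpFSH pigs (5.90 to 6.07 FPKM). The comparison covered 18 groups of 5 pigs, 9 genes in both groups, and flagged these 3. Chance flags about 1 in 20 groups.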

How the results depend on the processing

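The log2 ratio of BET1L was between 2.36 and 2.72 when single pigs were left out and 2.31 without control replicates 2 and 5 together. With group medians it was 2.89, the highest of the alternatives. These are descriptions of the values that chose the set. No alternative called a partner. The count of partners with an unadjusted P under 0.05 went from 0 to 1, GOSR2, with upper-quartile scaling, quantile normalization, no filter on FPKM, edgeR and DESeq2, to between 0 and 1 with single pigs left out (1 without control replicate 2), and to 2, GOSR2 and YKT6, without control replicates 2 and 5, against 7.41% of all loci. In that fit the count of other Golgi traffic genes called was 1, and under the rest it was 0. The 2 level steps held in all 11 alternatives tried.

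Some directions turned where the difference was small. With fold changes from group medians the log2 ratio was -0.016 for GOSR1, 0.029 for SEC22B and 0.0092 for SIRT3. Without control replicates 2 and 5 it was 0.0089 for BET1, 0.014 for SEC22B and 0.13 for SIRT3. Leaving out single pigs gave -0.093 to 0.29 for GOSR1, -0.050 to 0.36 for YKT6, -0.23 to 0.014 for RIC8A, -0.58 to 0.25 for ODF3 and -0.037 to 0.65 for ENSSSCG00000014554. ODF3 was at 0.023 with upper-quartile scaling, 0.089 with quantile normalization, 0.024 with edgeR and 0.027 with DESeq2, and RIC8A at 0.0016 with edgeR and 0.0034 with DESeq2. STX16 lost its unadjusted P under 0.05 in 11 of 20 alternatives, and the P of MSTRG.6763 was 0.0546 without control replicates 2 and 5. The cause of these changes was not tested.

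The replicate numbers did not pair the pigs. Deviations of same-numbered pigs had r between -0.41 and 0.11, over 0.1 in 1 of 5 pairs, and 0 pigs correlated best with their own number. With the replicate number as a block, 0 partners were called and 0 had an unadjusted P under 0.05, and STX16 no longer had one.

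With 5 pigs per group, the intervals of GOSR1 and YKT6 still allowed differences of 0.68 and 0.79 on the log2 scale.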
